A study of Rattus norvegicus with 8 samples.

Results

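The small heat shock proteins and cytosolic chaperones described here are 10 genes: Hspb1, Hspb2, Hspb3, Hspb6, Hspb7, Hspb8, Cryab, Hspa8, Hsp90aa1 and Dnajb1. They were found in the non-normalized bead array table by the platform's gene symbol, which gave 9 probes, 1 for each gene except Hspa8, out of 22523 probes in all. Hspa8, the constitutive cytosolic HSP70, has no probe under its symbol in the annotation and is not analysed here. All 9 probes passed the filter on dim signals that left 10212 probes, and on all 8 arrays each of the 9 had a detection p of 0, so no member sat near background.

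RNA came from thigh (femoris) skeletal muscle of Wistar Han rats, with 1 array per rat, on Illumina bead arrays, which report a brightness per probe. The 4 arrays of the control group, rats on standard chow, are set against 4 arrays of rats whose chow held 150 ppm of compound 177, a sulfonyl isoxazoline, over 28 days. The series title names mitochondrial toxicity in skeletal muscle as the subject. The labels used here give the strain and the tissue of the rats, and all arrays come from whole muscle. Levels are log2 intensities after background correction and quantile normalization, and every difference is compound 177 minus control on that scale.

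Small heat shock proteins bind unfolding proteins and hold them in a state from which other chaperones can refold them, without using ATP. HSP70 proteins do the refolding with ATP, J proteins such as Dnajb1 bring them their substrates, and HSP90 completes the folding of kinases and receptors. In striated muscle Cryab, Hspb1 and their relatives sit at the Z-disc and on desmin filaments, and several are known to be more abundant in slow than in fast fibres. Heat shock factor 1 switches on many of these genes under protein damage through heat shock elements, alternating repeats of the unit nGAAn.

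The promoters of 5 members are shown, since the classical switch of this family is a short sequence near the start of its genes. RefSeq promoters (GRCr8, 250 bases before to 50 after each gene's start) were held for 7 of the 10 genes. Capitals mark matches to GAANNTTC or TTCNNGAA, 2 adjoining units of a heat shock element, searched on both strands (each motif is its own reverse complement), and matches of the 2 motifs may overlap. Such a match was found in 15.85% of all 33469 promoters of this length and in 5 of these 7, those of Hspb1, Hspb6, Hspb8, Hspa8 and Dnajb1. Hspb1 lies on the minus strand (chr12:26432252-26432551), Hspb6 on the plus strand (chr1:94934122-94934421), Hspb8 on the plus strand (chr12:45837058-45837357), Dnajb1 on the minus strand (chr19:41431092-41431391) and Hspb7 on the plus strand (chr5:159010509-159010808).
Hspb1: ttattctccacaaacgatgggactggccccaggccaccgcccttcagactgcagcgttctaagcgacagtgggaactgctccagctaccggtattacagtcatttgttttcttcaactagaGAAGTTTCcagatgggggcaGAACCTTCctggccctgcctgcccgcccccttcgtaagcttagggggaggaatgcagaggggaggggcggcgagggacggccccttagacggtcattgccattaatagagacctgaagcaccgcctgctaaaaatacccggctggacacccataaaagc
Hspb6: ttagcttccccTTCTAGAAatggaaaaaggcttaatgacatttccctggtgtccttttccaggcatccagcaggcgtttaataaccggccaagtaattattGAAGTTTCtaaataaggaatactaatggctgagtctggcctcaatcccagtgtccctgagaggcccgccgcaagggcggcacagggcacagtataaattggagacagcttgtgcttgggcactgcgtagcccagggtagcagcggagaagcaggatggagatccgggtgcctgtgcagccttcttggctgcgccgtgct
Hspb8: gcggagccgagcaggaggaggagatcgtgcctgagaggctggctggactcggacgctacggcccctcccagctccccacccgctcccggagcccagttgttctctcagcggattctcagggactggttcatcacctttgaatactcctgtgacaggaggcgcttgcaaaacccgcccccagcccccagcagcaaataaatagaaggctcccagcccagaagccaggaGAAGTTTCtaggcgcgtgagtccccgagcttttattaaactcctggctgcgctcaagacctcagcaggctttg
Dnajb1: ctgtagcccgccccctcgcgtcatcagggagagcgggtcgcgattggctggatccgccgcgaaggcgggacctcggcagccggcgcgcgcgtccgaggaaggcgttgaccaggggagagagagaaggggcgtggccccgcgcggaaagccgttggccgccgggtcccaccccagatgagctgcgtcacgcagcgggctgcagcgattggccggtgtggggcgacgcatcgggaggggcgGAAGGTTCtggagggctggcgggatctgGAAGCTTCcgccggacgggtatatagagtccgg
Hspb7: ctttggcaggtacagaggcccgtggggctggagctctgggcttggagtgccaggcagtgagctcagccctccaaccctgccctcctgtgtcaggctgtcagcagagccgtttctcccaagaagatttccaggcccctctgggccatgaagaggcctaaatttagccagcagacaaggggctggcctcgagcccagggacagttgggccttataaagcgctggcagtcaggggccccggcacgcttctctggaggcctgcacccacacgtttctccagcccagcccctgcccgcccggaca
The same 8 letters, GAAGTTTC, stood in the Hspb1, Hspb6 and Hspb8 windows, with the first base at -129, -149 and -23 from the start. In the Hspa8 promoter 3 units followed each other (GAANNTTC continued by NNGAA, or the reverse complement), which 0.8% of all promoters showed. The Hspb7 and Hspb3 windows held no match, which says only that these letters are not in them.

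No member passed the test between the groups. With limma, 0 of the 9 members and 0 of all 10212 probes (0%) had an adjusted p below 0.05, and each member's adjusted p was 0.9999. By sign 4 members were above control and 5 below, where 53.4% of all tested probes were above. The median difference of the 9 was -0.06, against 0.01 over all tested probes. An unadjusted p below 0.05 was reached by 1 member, Hspb7, and by 3.88% of all tested probes, with 1.62% in the lower and 2.26% in the higher direction. With the replicate number as a block 657 probes in place of 396 had such a p, still with 0 calls after adjustment. The 4 values of each group overlapped for all 9 members, while they did not overlap for 2.41% of all probes. With 4 rats per group the 95% intervals of the members' differences had half-widths of 0.26 to 0.57, before any adjustment. A difference smaller than its own half-width has an interval that spans 0. The adjusted test asks for more, since Hspb7, at -0.68 outside even the largest half-width, did not pass it.

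**Figure D1:**
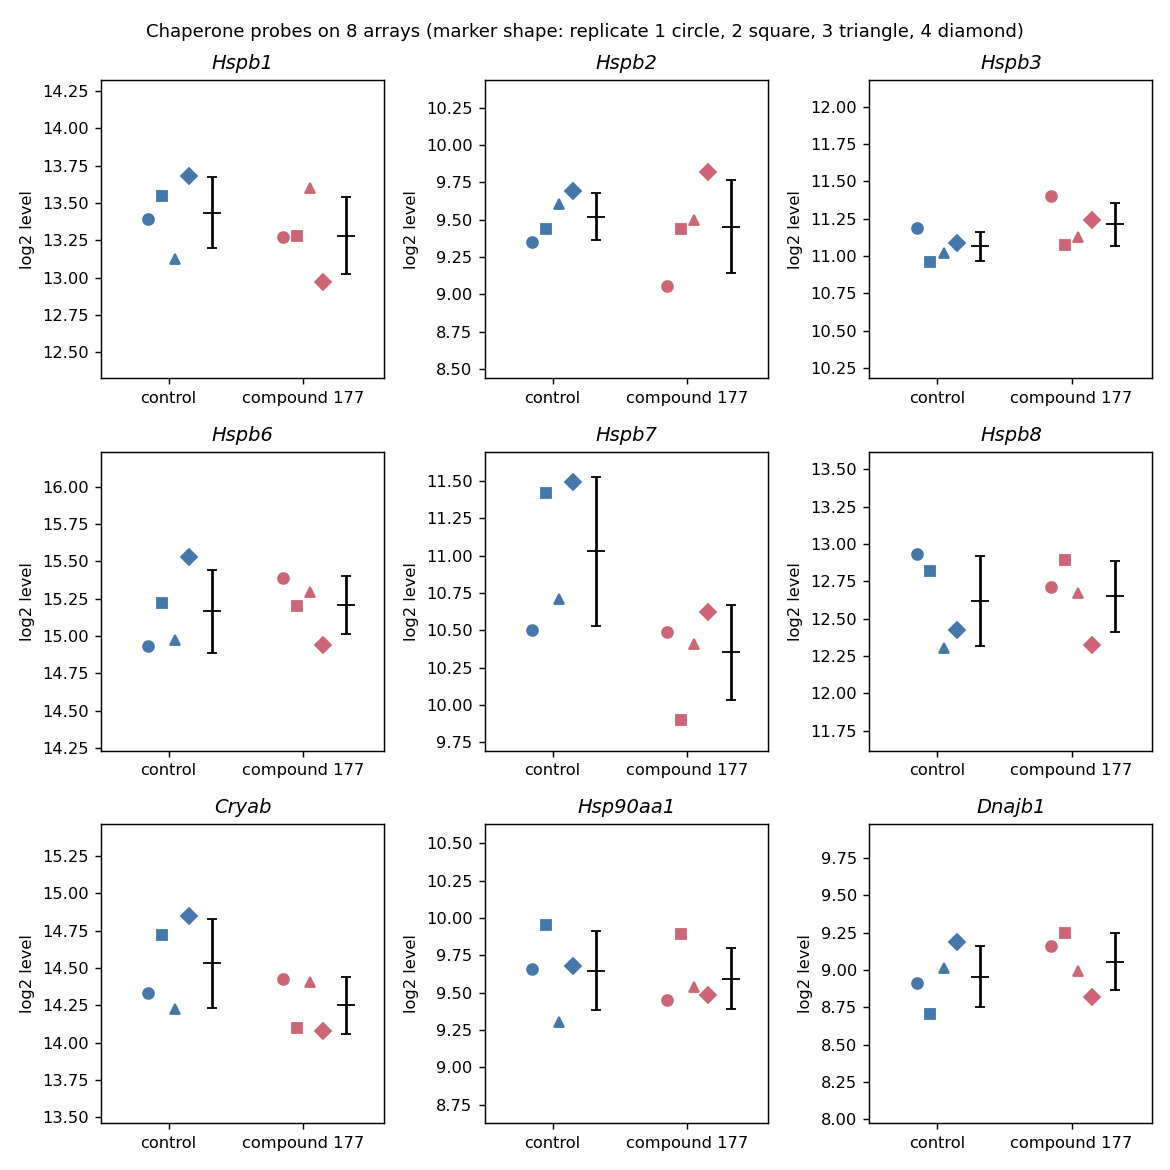
Each panel shows the log2 level of 1 probe on the 4 control (blue) and 4 compound 177 (red) arrays, with the group mean and SD (n = 4) in black; every panel spans 2 log2 units. The groups overlap in all 9 panels, and Hspb7 shows the widest spread, from 9.90 to 11.49.

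Hspb7, the cardiovascular small heat shock protein, which binds filamin C in muscle, had the largest difference of the 9 members. Its level was 10.50, 11.42, 10.71 and 11.49 in control rats 1 to 4 and 10.49, 9.90, 10.40 and 10.62 in treated rats 1 to 4. The treated rats all lay below control rats 2, 3 and 4, and control rat 1 lay within the treated range. Group means were 11.03 ± 0.50 and 10.35 ± 0.32 (SD, n = 4), a difference of -0.68 (SE 0.25, 95% interval -1.24 to -0.11), or 0.625 of the control level (0.422 to 0.927). The unadjusted limma p was 0.0243 (adjusted p = 0.9999), which ranked 155 among the 10212 probes, so Hspb7 did not pass. Within replicates 1 and 2 the difference was -0.77 and within replicates 3 and 4 it was -0.59. Without control rat 2 and treated rat 2, whose arrays detected 9634 and 9261 probes, fewer than the other 6, it was -0.40, a setting chosen after the values were seen.

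Flnc, filamin C, the actin crosslinker of the Z-disc to which Hspb7 binds, had the lowest difference in the list of clients and chaperone-assisted autophagy. Its level was 12.06, 12.25, 11.77 and 12.26 in the controls and 11.60, 11.39, 11.94 and 11.81 in treated rats. Treated rats 3 and 4 exceeded control rat 3, so the groups overlapped. The difference was -0.40 (SE 0.16), with an unadjusted limma p of 0.0336 (adjusted p = 0.9999). That p was 0.0553 with the replicate block and 0.226 with median scaling, and below 0.05 in 13 of 23 alternatives. It was -0.66 in replicates 1 and 2 and -0.14 in replicates 3 and 4. Without both arrays numbered 2 it was -0.25, and with weights for array quality it was -0.28. Des, the intermediate filament desmin, differed by -0.16 (SE 0.11).

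Slow-fibre genes varied between the rats beside these values. All 10 tested slow-fibre markers (of 12 listed) had a mean below control, 2 of them with an unadjusted limma p below 0.05 and 0 after adjustment. Their mean deviation was -0.78, 1.02, 0.67 and 1.30 in control rats 1 to 4 and 0.86, -1.09, -1.21 and -0.79 in treated rats. Control rat 1 and treated rat 1 thus stood with the other group. In replicates 1 and 2 the slow-fibre mean differed by -0.24 and Hspb7 by -0.77. That -0.24 averages opposite signs. Treated rat 1 was above control rat 1 (0.86 against -0.78), and treated rat 2 was below control rat 2 (-1.09 against 1.02). In replicates 3 and 4 the slow-fibre mean differed by -1.99 and Hspb7 by -0.59. Control rats 4 and 2 were the highest both for the slow-fibre mean (1.30 and 1.02) and for Hspb7 (11.49 and 11.42). Treated rat 1 was high for the slow-fibre mean only (0.86, with Hspb7 at 10.49). Fast-fibre markers had means below control in 6 of 7 tested (of 10 listed), and their mean deviation ran from -0.05 to 0.10 in controls and from -0.17 to 0.06 in treated rats. Fibroblast and matrix markers had means below control in 10 of 10, with mean deviations from -0.19 to 0.60 in controls and from -1.03 to 0.51 in treated rats. Macrophage markers did so in 4 of 4 tested (of 8 listed), from -0.24 to 0.48 in controls and from -1.17 to 0.40 in treated rats. Nerve and Schwann cell markers did so in 5 of 5 (of 8 listed), from 0.12 to 0.23 and from -0.58 to 0.36. Other lists were more mixed. Endothelial markers were below control in 3 of 6 tested and adipocyte markers in 2 of 4. Blood markers were below it in 3 of 4 tested and smooth muscle markers in 4 of 5. The smooth muscle count includes Des (-0.16), the desmin also of striated muscle, so it does not read smooth muscle alone. In bulk muscle fewer cells of a type and less RNA per cell cannot be told apart, and the part of fibre type or of other cells in the Hspb7 and Flnc values was not tested.

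**Figure D2:**
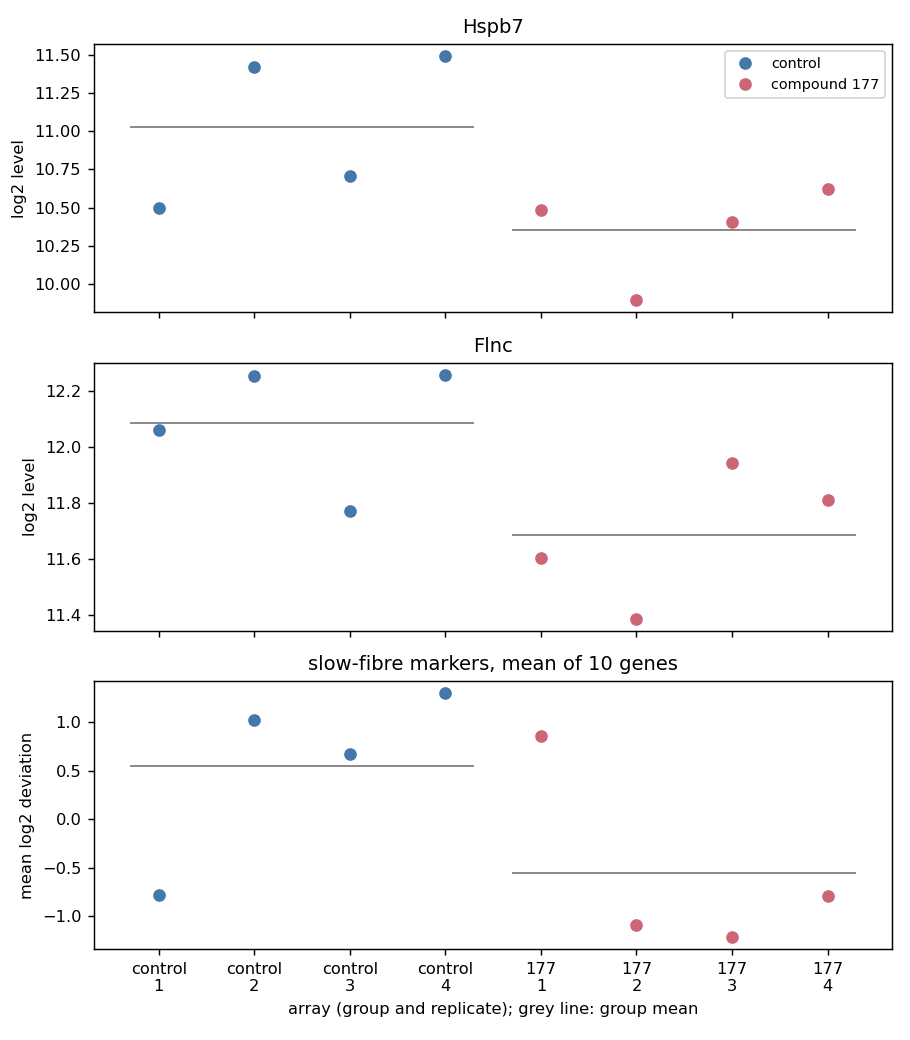
The upper panels give the log2 level of Hspb7 and of Flnc on each array and the lowest panel the mean deviation of 10 slow-fibre markers, with grey lines at the group means (n = 4). Control rat 1 is low for slow-fibre markers (-0.78) and for Hspb7 (10.50), whereas treated rat 1 is high for slow-fibre markers (0.86) and not for Hspb7 (10.49).

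Cryab, alpha B-crystallin, the desmin-binding small heat shock protein, had the next largest difference. It measured 14.33, 14.72, 14.23 and 14.85 in controls and 14.42, 14.09, 14.40 and 14.08 in treated rats. Control rats 2 and 4 were the highest of the 8, and control rats 1 and 3 lay between the treated rats. The difference was -0.28 (SE 0.17, 95% interval -0.66 to 0.10), with -0.26 in replicates 1 and 2 and -0.30 in replicates 3 and 4. It was -0.18 without control rat 4 and -0.17 without both rats numbered 2. Hspb1, the stress-phosphorylated HSP27 that stabilises actin filaments, measured 13.39, 13.55, 13.12 and 13.68 in controls and 13.27, 13.28, 13.60 and 12.97 in treated rats. Its difference was -0.15 (SE 0.17), with both groups spread over similar ranges, and leaving out 1 rat gave -0.27 (without treated rat 3) to -0.050 (without treated rat 4). Hspb1, Hspb7 and Cryab were below control within both normalization sets, and Hspb3 was above it in both.

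Hspb6, HSP20, a small heat shock protein phosphorylated by cyclic nucleotide dependent kinases, measured 14.93, 15.22, 14.97 and 15.53 in controls and 15.39, 15.20, 15.30 and 14.94 in treated rats. The groups covered nearly the same range, and the difference was 0.04 (SE 0.16, 95% interval -0.32 to 0.41).

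Hspb3, which partners Hspb2 in muscle, was 11.19, 10.96, 11.02 and 11.09 in controls and 11.40, 11.08, 11.13 and 11.24 in treated rats. It varied least of the 9 over the arrays (SD 0.14), and its difference was 0.15 (SE 0.11, 95% interval -0.11 to 0.40). Hspb2, which binds the myotonic dystrophy kinase and is a neighbour of Cryab in the genome, was 9.35, 9.44, 9.60 and 9.69 in controls and 9.06, 9.44, 9.50 and 9.82 in treated rats. The treated range enclosed the control range, and the difference was -0.07 (SE 0.17). The sign for Hspb2 was not stable, since its difference was 0.064 without treated rat 1 and 0.010 within replicates 3 and 4.

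Hspb8, HSP22, which works with the co-chaperone Bag3 to send damaged filamin to autophagy, was 12.93, 12.82, 12.30 and 12.42 in controls and 12.71, 12.89, 12.67 and 12.33 in treated rats. Its group difference was 0.03 (SE 0.18, 95% interval -0.37 to 0.43). Bag3 differed by -0.04 (SE 0.13), a sign that flipped with median scaling (0.015), and Stub1, the ubiquitin ligase CHIP of the same route, by 0.08 (SE 0.17). Neither member of this pair nor Stub1 passed the test.

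Dnajb1, HSP40, was 8.91, 8.71, 9.01 and 9.19 in controls and 9.16, 9.25, 8.996 and 8.82 in treated rats. Over all rats the difference was 0.10 (SE 0.14), but it was 0.40 in replicates 1 and 2, where both treated rats exceeded both controls, and -0.19 in replicates 3 and 4, where both lay below both controls. The difference between these 2 effects was -0.59 (SE 0.22), in a test chosen after the values were seen, with adjusted p = 0.9996 in limma. Its unadjusted p was below 0.05, as it was for 3.96% of all probes in that test, and 0 of them passed after adjustment. Hsp90aa1, the stress-inducible cytosolic HSP90, was 9.66, 9.95, 9.30 and 9.68 in controls and 9.45, 9.89, 9.54 and 9.49 in treated rats. Its difference was -0.06 (SE 0.16), and the treated values lay inside the control range.

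**Figure D3:**
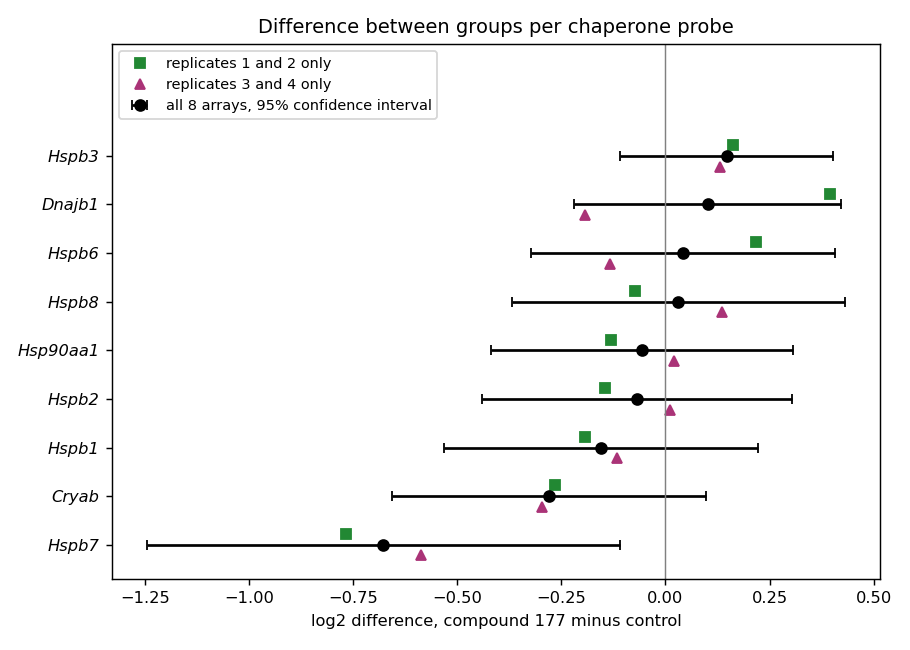
Black points give the log2 difference (compound 177 minus control) of each probe with its 95% confidence interval over 8 arrays; green squares and purple triangles give it within replicates 1 and 2 and within replicates 3 and 4. The interval of Hspb7 (-1.24 to -0.11) lies below 0 before any adjustment, the other 8 span 0, and the set values of Dnajb1 (0.40 and -0.19) lie on opposite sides.

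Replicates 1 and 2 of both groups were normalized by the authors apart from replicates 3 and 4, and these sets were compared directly. In a fit with the diet as a term, chosen after the values were seen, Hspb8 was 12.84 ± 0.10 in set 1 and 12.43 ± 0.17 in set 2 (SD, n = 4), a difference of 0.41 (SE 0.12). The 2 sets did not overlap, with 12.71 to 12.93 against 12.30 to 12.67. Hspb2 went the other way, with 9.06 to 9.44 in set 1 and 9.50 to 9.82 in set 2, a difference of -0.33 (SE 0.13). Neither passed, at limma adjusted p = 0.105 and adjusted p = 0.180, where 0.049% of all probes (5) passed. That count was 200 without control rat 3, 0 or 1 without any other single rat, and 217 with the authors' normalized values. In the authors' values each set kept a distribution of its own, so the 217 includes any shift left by that processing. Both had an unadjusted p below 0.05, as 21.2% of all probes did, and 14.1% of all probes had sets that did not overlap. For Hspb2 that p was not below 0.05 without control rat 1, control rat 4, treated rat 1 or treated rat 4, where the differences were -0.33, -0.33, -0.24 and -0.25. With median scaling in place of quantile normalization the Hspb8 difference was 0.095, with an unadjusted limma p of 0.644, and that of Hspb2 was -0.58, so the size of both depended on the scaling.

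**Figure D4:**
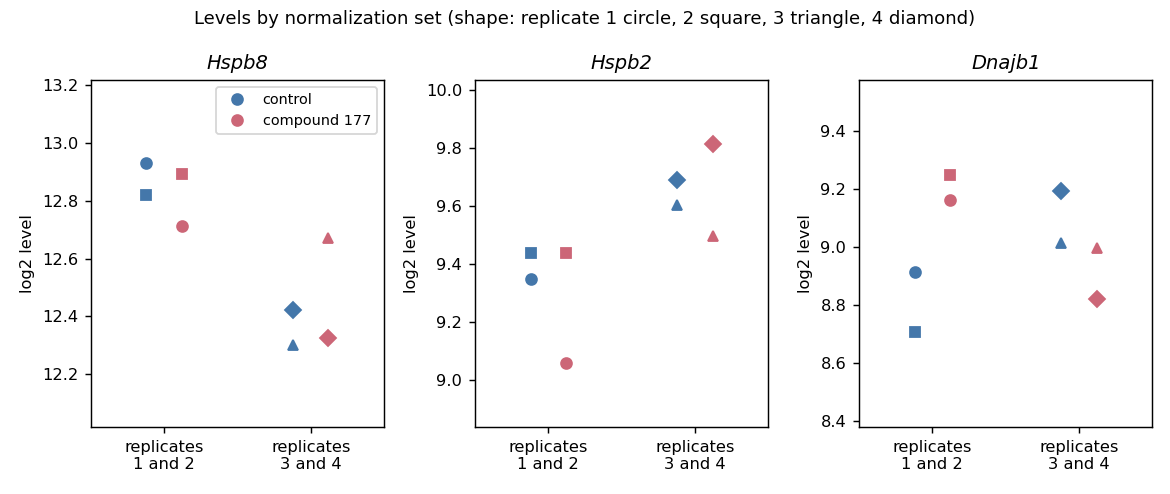
Log2 levels of Hspb8, Hspb2 and Dnajb1 for replicates 1 and 2 (left) and 3 and 4 (right), control in blue and compound 177 in red. Hspb8 is higher on the left (12.71 to 12.93 against 12.30 to 12.67), Hspb2 is higher on the right, and for Dnajb1 the order of the diets turns over.

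Across the rats the levels of Cryab were set against those of the other members. Over the 8 arrays Pearson's r was 0.83 for Cryab and Hspb1 (exact permutation p = 0.0118, Spearman's rho 0.76 with exact permutation p = 0.0368). It was 0.65 after the 2 arrays farthest from the Hspb1 median were left out. For Cryab and Hspb6 r was 0.70 (exact permutation p = 0.0542, rho 0.76 with exact permutation p = 0.0368), and r was 0.56 without the 2 arrays farthest from the Hspb6 median. For Cryab and Hspb7 r was 0.84 (exact permutation p = 0.0153), but rho was 0.48 (exact permutation p = 0.243) and r was 0.25 without the 2 farthest arrays, so that relation rests on 2 rats. With the other 5 members r of Cryab was 0.33 for Hsp90aa1, 0.050 for Hspb8, -0.047 for Dnajb1, -0.083 for Hspb2 and -0.26 for Hspb3. Adjusted over the 36 pairs of members computed, 0 passed by r, with adjusted p = 0.275 for Cryab with Hspb1 and with Hspb7 and 0.438 for Cryab with Hspb6, and 0 passed by rho (lowest adjusted p = 0.441). Among pairs without Cryab, r was 0.69 for Hspb1 and Hspb6 and 0.66 for Hspb8 and Hsp90aa1. Hspb2 and Hspb8 ran opposite ways, with r -0.68 and rho -0.78 (exact permutation p = 0.0295 for rho), the lowest r of all. Hspb2 and Hspb8 also differed between the normalization sets in opposite directions, by -0.33 and 0.41 (set 1 minus set 2), without overlap. Whether their r goes beyond that shift between the sets was not tested. Of the 36 pairs 21 had an r above 0. The median r of the 36 pairs was 0.06, against 0.01 over all pairs of tested probes. Of all such pairs 1.36% had an r of at least that of Cryab with Hspb1. The permutations treat the 8 arrays as exchangeable, although they hold 2 diets and 2 normalization sets. With each diet group's mean taken off, r of Cryab was 0.81 with Hspb1, 0.91 with Hspb6 and 0.76 with Hspb7. A set of 4 arrays is too few for these relations within a normalization set.

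The genes whose levels most resembled those of the 3 most variable members were found by Pearson's r over the 8 arrays, as a description. The search covered 7432 tested probes with a gene symbol outside the members, each probe by itself. Among so many probes over 8 arrays some high r arise by chance. No test was made of these r, and none was recomputed with arrays left out. For Hspb7 they were Smc1a (0.94), a cohesin subunit, Dhx36 (0.92), a helicase that unwinds quadruplex nucleic acid, and Ip6k2 (0.92), an inositol phosphate kinase. For Cryab they were Ndrg1 (0.98), Colq (0.96), which anchors acetylcholinesterase at the neuromuscular junction, and Chp1 (0.95). For Hspb8 they were Hsd17b4 (0.98), a peroxisomal enzyme of fatty acid oxidation, Cabin1 (0.98) and Rhoc (0.97), a small GTPase.

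No gene of the wider chaperone network passed the test. Of 96 genes listed in 7 groups, 81 had a probe and 68 were tested, of which 35 were above and 33 below control, with a median difference of 0.0032. With limma 0 passed after adjustment, and 1, Flnc, had an unadjusted p below 0.05, beside 3.88% of all probes. The groups did not overlap for 1 gene, beside 2.41% of all probes. This gene was Bag5, a nucleotide exchange co-chaperone of HSP70, and its level was 8.82 to 9.09 in controls and 9.16 to 9.31 in treated rats. Its difference was 0.23 (SE 0.11, adjusted p = 0.9999 in limma).

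Among other small heat shock proteins and HSP70, HSP90 and HSP110 genes 5 of 14 were tested, 2 above and 3 below control (median -0.07, but 0.027 without the filter on dim probes), from Hspa2, an HSP70 best known from testis, at -0.37 (SE 0.31) to Hspa14 at 0.06. Hspa2 differed by -0.018 in replicates 1 and 2 and by -0.72 in replicates 3 and 4, and by -0.64 without control rat 1 and -0.14 without control rat 4. Hspa4, an HSP110-type exchange factor, differed by 0.05 (SE 0.28) and was detected on 6 of 8 arrays. The inducible members were dim: Hspa1b, heat-inducible HSP70, and Hsph1, HSP110, had a detection p below 0.05 on 0 of 8 arrays, with intensities of 81.5 to 97.2 and 72.1 to 91.5. Of the 2 Hsp90ab1 probes, for the constitutive cytosolic HSP90, 1 was detected on 0 arrays and 1 on 2 arrays. These probes were not well above background in either group, and no fold is given for them. Their values do not show how strongly the genes themselves are expressed, and the 2 Hsp90ab1 probes differed from each other. Hsf1 and Hspa1a have no probe under their symbols in the annotation.

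J proteins were above control in 10 of 14 tested genes (median 0.05), from Dnajb14 at -0.24 (SE 0.33) to Dnajc27 at 0.21 (SE 0.13). Dnajb14 and Dnajc27 were each detected on 6 of 8 arrays. Without background correction they differed by -0.11 and 0.092. The difference of Dnajb14 was -0.54 without control rat 2 and -0.017 without treated rat 2. Dnaja1, which loads HSP70 and is itself induced by heat, differed by 0.06 (SE 0.19). Co-chaperones were above in 11 of 20 (median 0.01), from Fkbp5, a glucocorticoid-induced HSP90 partner, at -0.31 (SE 0.21) to Bag5 at 0.23. Fkbp5 differed by -0.84 in replicates 1 and 2 and by 0.22 in replicates 3 and 4. Stip1, which bridges HSP70 and HSP90, differed by 0.0048 (SE 0.13). Unc45b, the myosin chaperone of muscle, differed by 0.06 (SE 0.12) on 1 probe and by -0.0046 (SE 0.16) on another.

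Heat shock factors and regulators were above in 1 of 3 (median -0.06), with Hsf2 at -0.15 (SE 0.11) and Hsbp1, which binds heat shock factor 1, at 0.07 (SE 0.11). The cytosolic folding ring TRiC and its partner prefoldin were above in 6 of 10 (median 0.03), from Cct5 at -0.12 to Pfdn1 at 0.26 (SE 0.14). Clients and autophagy genes were above in 4 of 10 (median -0.04, but 0.014 with median scaling), with Vcp, a segregase, highest at 0.08 (SE 0.13). Chaperones of the endoplasmic reticulum were above in 2 of 8 (median -0.05), from Pdia4 at -0.20 (SE 0.15) to Dnajc3 at 0.18 (SE 0.13). These counts lie beside 53.4% of all probes above control.

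**Figure D5:**
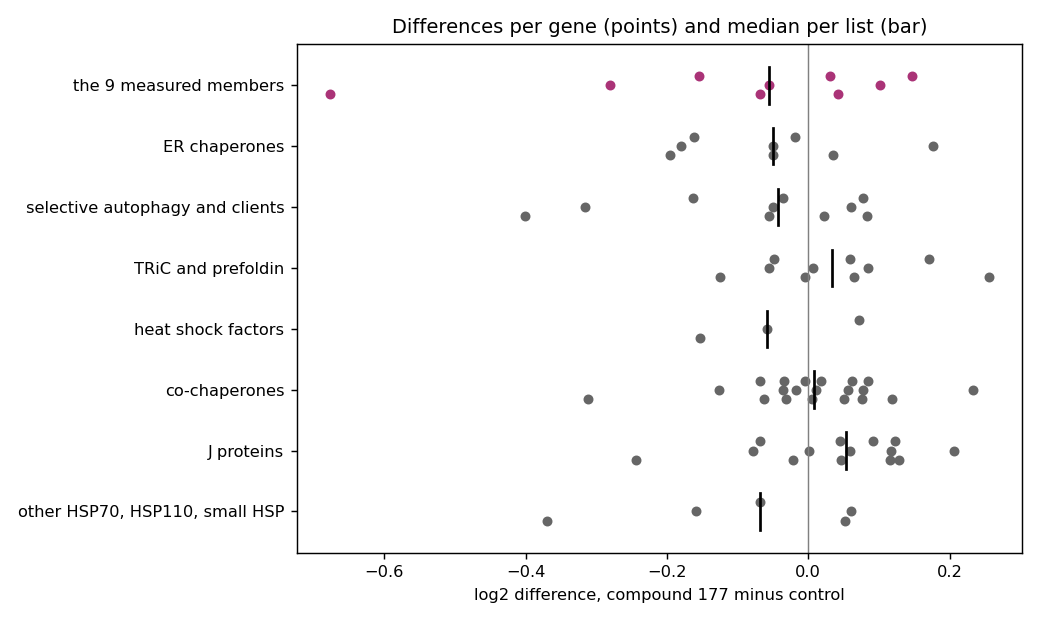
Each point is the log2 difference (compound 177 minus control) of 1 tested gene, by list, and the black bar is the list's median. The 9 members range from -0.68 (Hspb7) to 0.15 (Hspb3), and the list medians lie between -0.07 and 0.05.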

How the data were processed

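The authors deposited a table of linear intensity per probe and array without normalization, with a detection p-value beside each, and a normalized table of intensity, per the file headers. The scanner software was not given in the sources used here. Sorted values of the normalized table are identical within replicates 1 and 2 of both groups (set 1) and within 3 and 4 (set 2). RNA was isolated with a column kit and labelled as biotin cRNA, per the labels' protocols.

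Intensities were corrected and quantile-normalized with neqc of limma 3.58.1 (R 4.3.3), with an offset of 16, and taken to log2. Probes with detection p below 0.05 on at least 4 of 8 arrays were tested with lmFit and eBayes, with Benjamini-Hochberg adjustment over all of them. The procedure was tested on simulated data. Gene symbols came from the platform annotation (13793 probes with a symbol, 8730 without); all 9 member probes matched a RefSeq gene identifier. In the lists, where a gene had several probes, the probe with the highest mean signal stood for it. Named genes are the members, a fixed set of partners where measured, the highest and lowest of each list, and the 3 genes most like each of the 3 most variable members. Members, lists and tests were chosen with earlier results of these data known. Correlations used exact permutation tests. Alternatives changed the background correction, scaling, filter, blocks and array weights, or left out arrays; leaving out both arrays numbered 2, the comparison of the sets, their interaction and the pairs of members were chosen after seeing the data.

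The labels do not say that replicate numbers pair the rats. Deviations from group means correlated at 0.24, 0.47, 0.12 and 0.43 for numbers 1 to 4, each over 0.1. On that ground, from the data alone, pairing by number was allowed for as an alternative. Rats of the same number also share a normalization set, so these correlations cannot tell pairs from a shift between the sets. The fit without the block stayed the main one. Per-array medians ran from 97.5 to 124.7 and detected probes from 9261 to 10620; the number of arrays limits precision. The design text counts rats per group, so replicates were taken as separate animals.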

Additional observations from a re-analysis of the deposited data

Results flagged for a closer look

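Of 64 groups of 4 arrays checked (32 probes), 3 held an array far from the other 3, about what chance gives at 1 in 20, and 0 of these were in the 9 member probes. Bag3 was 13.03 in compound 177 replicate 2, against 12.67 to 12.72 in the other treated rats. Unc45b was 8.34 on 1 probe in control replicate 4, against 8.11 to 8.14 in the other controls. Its other probe read 7.93 in control replicate 4, against 7.87 to 7.88. Myh7, the slow myosin heavy chain, was 12.76 in control replicate 1, against 14.69 to 14.95 in the other controls.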

How the results depend on the processing

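In all 23 alternatives 0 members and 0 probes passed after adjustment with limma, and the lowest member adjusted p was 0.7445. The count of probes with an unadjusted p below 0.05 was 396, and ran from 126 with median scaling to 954 without the filter. It was 657 with the replicate number as a block (the possible pairing), which changed no call after adjustment, and 253 without control replicate 3. Hspb7 was below control in 23 of 23 and had an unadjusted p below 0.05 in 15. Leaving out 1 array gave -0.85 (without control replicate 1) to -0.52 (without control replicate 4) for Hspb7. Within set 1 the sign turned for Hspb8 (-0.074), Bag3 (0.044), Hspa4 (-0.067) and Stip1 (-0.18). Within set 2 it turned for Hspb2 (0.010), Hspb6 (-0.13), Hsp90aa1 (0.020), Dnajb1 (-0.19), Dnaja1 (-0.034) and Fkbp5 (0.22). Median scaling turned Bag3 (0.015), and leaving out both arrays numbered 2 turned Dnajb1 (-0.046), Dnaja1 (-0.027) and Vcp (-0.019). Leaving out 1 array gave ranges that crossed 0 for Hspb2 (-0.19 to 0.064), Hspb6 (-0.036 to 0.16), Hspb8 (-0.075 to 0.14), Hsp90aa1 (-0.17 to 0.045), Bag3 (-0.12 to 0.024), Stub1 (-0.040 to 0.16), Hspa4 (-0.11 to 0.31), Dnaja1 (-0.098 to 0.17), Stip1 (-0.069 to 0.077) and Vcp (-0.0057 to 0.16). The cause of these turns was not tested. The number of arrays limits the precision.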
